A study of Rattus norvegicus with 28 samples.

Results

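The brain comparison set 4 libraries of rats labelled mtCO3mut against 4 libraries of wild-type (WT) rats, 8 of the 28 samples of the series. The series studies how rat nervous tissue responds when neurons lack cytochrome c oxidase, and it also holds late and early-stage spinal cord from the same genotypes. Both brain groups are labelled only by tissue and genotype. The design text names the mutant animals as COXⅢ NeuN-Cre rats, a name that joins the edited subunit gene to a driver named after the neuronal protein NeuN. The labels used here give no age, sex, strain, brain region or number of animals, and they do not say whether libraries of one genotype came from separate rats. The p-values therefore rest on library-to-library spread, part of which may be technical.

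The members were found through the column names of the brain count table. There, 4 names carry the syllable jia, a plus mark, and 4 carry a minus sign. In the spinal cord table the same animal-like numbers carry jia and jian, so the brain minus sign stands where the cord table spells out minus. The plus mark was taken to mean mtCO3mut and the minus mark WT, which no label states. Libraries are therefore called plus-marked and minus-marked, numbered 1 to 4 within each mark in the order of their names, and every direction below is plus against minus. The genotype behind each direction rests on that reading.

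Cytochrome c oxidase is respiratory complex IV. It passes electrons from cytochrome c to oxygen at the end of the mitochondrial electron transport chain and pumps protons that drive ATP synthesis. Its catalytic core, to which the subunit encoded by mtCO3 belongs, is made from mitochondrial DNA, and its remaining subunits come from the nucleus. Neurons depend heavily on this chain, and inherited complex IV defects often affect the nervous system.

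The brain table lists genes by Ensembl identifier alone, and 0 of its 30560 identifiers could be paired with a symbol in the reference table used here. The edited gene could not be located among them, so the usual first check of the labels, the targeted gene in every sample, was not made. None of the 52 lists of pathways, cell types and brain regions drawn up for this tissue could be counted, and neuronal or other defining markers of brain were not examined. Genes are described as groups below, and only 2 that rose and 2 that fell are given by identifier. In whole tissue, fewer cells of a type and less RNA per cell cannot be told apart.

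The plus-marked libraries were deeper. Their total counts ran from 64782608 to 82776333, and those of the minus-marked libraries from 33105800 to 62851529, with no overlap (exact two-sided permutation p = 0.0286, the smallest that 4 against 4 allow; 0.0571 adjusted over 6 library measures). They also held more genes with a count, at 19465 to 19870 against 18725 to 19403. When every library was thinned at random to the total of the smallest, the plus-marked ones still had 19094 to 19308 genes with a count and the minus-marked ones 18725 to 19070 (exact two-sided permutation p = 0.0286, adjusted 0.0571). Thinned in this way, 45 genes differed between the marks, against 41 in the full counts, and 36 of the 41 were among them.

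Minus-marked library 4 stood apart from the other minus-marked libraries. The 10 most abundant brain genes took 36.1% of its counts, where the other minus-marked libraries had 17.8% to 18.8% and the plus-marked ones 22.05% to 26.4%. Without it, 15 genes differed between the marks. With those 10 genes left out of the library sizes, 44 differed, and all 41 called in the full counts were among them. The scaling factors were then computed anew on those sizes, and the 10 genes stayed in the fit. That step largely undoes the change in library size, so this alternative could not show whether those genes mattered.

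Over all genes tested, the distance between brain profiles did not pass the test of mark, which does not show that the profiles were alike. The distance between 2 libraries was taken as the root mean square difference in log2 CPM (counts scaled per library to a common total) over the genes tested. It averaged 0.441 over the 6 pairs of plus-marked libraries (0.400 to 0.485), 0.532 over the 6 pairs of minus-marked libraries (0.513 to 0.556) and 0.503 over the 16 pairs of unlike mark (0.442 to 0.595). Each plus-marked library lay nearer on average to its own mark than to the other, and each minus-marked library lay nearer to the plus-marked ones. The excess of unlike over like pairs was 0.0166 (exact one-sided permutation p = 0.0857, adjusted 0.129, where 0.0286 is the smallest possible). The median SD of log2 CPM was 0.147 among plus-marked and 0.192 among minus-marked libraries. The minus-marked libraries were also the shallower ones, and whether depth bears on their wider spread was not tested.

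Of 16860 genes tested, 41 (0.243%) differed between the marks in edgeR's quasi-likelihood test at a Benjamini-Hochberg adjusted p under 0.05. DESeq2's Wald test called 210 genes (151 higher, 59 lower), and 74 were called by edgeR with no filter on low counts. Of the 41, 32 (0.19% of those tested) were higher with the plus mark and 9 (0.0534%) were lower. Fold changes are given as log2 values, where 1 is a doubling. Among the higher genes the median was 1.05 (0.43 to 2.46), and 18 of them at least doubled. The lower genes had a median of -0.67 (-1.22 to -0.43), and only 1 of the 9 halved. The median over all genes tested was 0.00, and 50.3% of all log2 fold changes were above 0. At an unadjusted p under 0.05, 1539 genes (9.13%) passed and there was no such lean to higher genes, with 710 higher (4.21%) and 829 lower (4.92%). Each of the 41 had no overlap between the marks in CPM, a property the call itself favours, and 834 of all genes tested (4.95%) shared it. Most calls lay near the threshold: 7 of the 41 had an adjusted p of 0.01 or less.

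**Figure D1:**
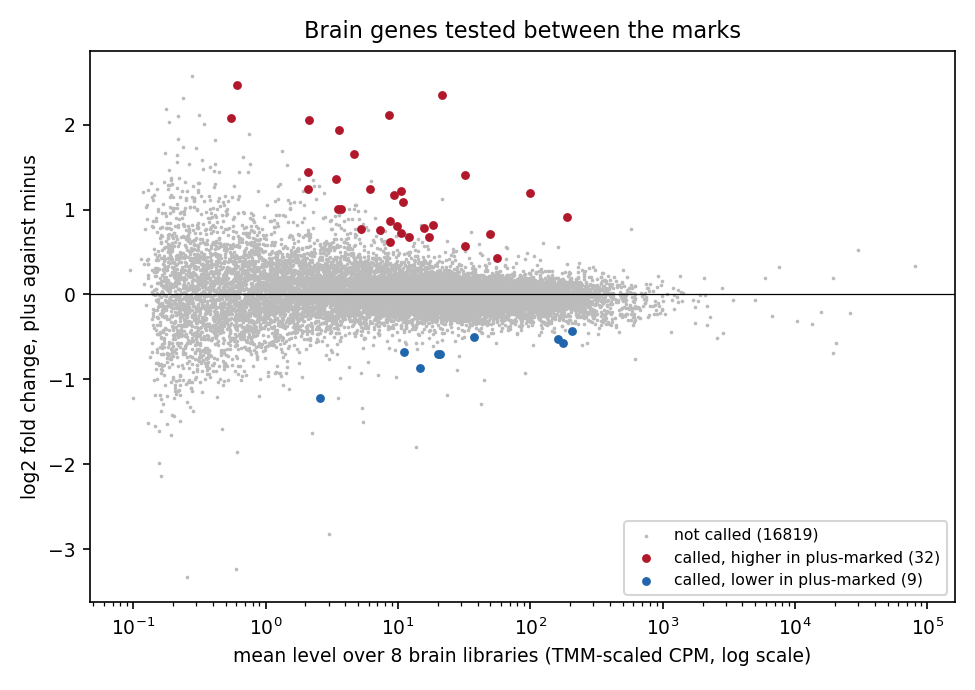
Log2 fold change of each of 16860 brain genes (plus against minus, vertical) against its mean level over the 8 libraries (TMM-scaled CPM, log axis, horizontal); red points are the 32 genes called higher, blue points the 9 called lower and grey points those not called. The called genes lie mostly above 0, and the cloud of uncalled genes widens below 1 CPM.

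The called genes were mostly of low or middling abundance. Among the 41, 2 had a mean under 1 CPM, 17 a mean of 1 to 10 CPM, 18 a mean of 10 to 100 CPM and 4 a mean over 100 CPM. In these ranges 0.0792%, 0.396%, 0.216% and 0.232% of the genes tested were called. The lower genes were the more abundant, with a median of 20.8 CPM against 9.07 CPM for the higher ones. All 3 lower genes over 100 CPM changed by less than 1.5-fold. Of all genes tested, 213 had a log2 fold change of at least 1 in size, and 194 of these were not called. Of the 194, 156 had a mean under 1 CPM and the marks overlapped for 122. Among those uncalled genes with a mean of at least 1 CPM, 27 were at least 2-fold higher and 11 at least 2-fold lower, and 8 of the 11 had their highest level in minus-marked library 4. Of the 27, 13 had their highest level in plus-marked library 1, 9 in library 2, 4 in library 3 and 1 in library 4.

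The gene that rose most among called genes with a mean log2 CPM of at least 0 was ENSRNOG00000046834. The plus-marked libraries 1 to 4 had 34.7, 39.4, 36.2 and 32.8 CPM of it, and the minus-marked libraries 1 to 4 had 10.1, 5.57, 6.92 and 5.55 CPM. Every plus-marked library was thus above every minus-marked one, by at least 1.69 on the log2 scale. The log2 fold change was 2.35 (SE 0.16, 95% interval 2.00 to 2.70, edgeR adjusted p = 2.4e-05). Its log2 fold change lay between 2.24 and 2.57 over the 18 alternative fits. It was called in each of them that has more than 1 plus-marked library. The fit within the code L1 of the column names has only 1, so its call is left aside.

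ENSRNOG00000001959 rose next most. Its levels were 16.3, 16.4, 14.7 and 8.01 CPM in plus-marked libraries 1 to 4, and 3.52, 3.78, 2.39 and 3.15 CPM in minus-marked libraries 1 to 4. Plus-marked library 4 stood well below the other plus-marked ones but still more than double every minus-marked library. The log2 fold change was 2.12 (SE 0.22, 95% interval 1.64 to 2.60, edgeR adjusted p = 0.00127). It was called in each of the 18 alternatives that has more than 1 plus-marked library. The smallest fold came within the code L1 of the column names, at 1.53, where the only plus-marked library is library 4.

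ENSRNOG00000019176 fell most. It was at 1.67, 1.41, 1.63 and 1.51 CPM in plus-marked libraries 1 to 4, a narrow range, and at 2.94, 3.85, 3.27 and 4.40 CPM in minus-marked libraries 1 to 4. These levels rest on 105 to 220 counts per library. The log2 fold change was -1.22 (SE 0.19, 95% interval -1.61 to -0.82, edgeR adjusted p = 0.0182). Its call was lost when 1 of 4 libraries was left out, namely plus-marked 1, 2 and 3 and minus-marked 4 (edgeR adjusted p = 0.0502, 0.0707, 0.0564 and 0.0553), and also within code L3 of the column names (edgeR adjusted p = 0.127) and within L1, where there is only 1 plus-marked library, while its log2 fold change stayed between -1.34 and -1.11 over all 18 alternatives.

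ENSRNOG00000005964 fell next most. Plus-marked libraries 1 to 4 had 10.1, 10.4, 9.37 and 11.9 CPM and minus-marked libraries 1 to 4 had 17.9, 22.97, 14.7 and 20.9 CPM. The marks did not overlap, but the nearest pair of libraries was only 0.31 apart on the log2 scale. The log2 fold change was -0.87 (SE 0.13, 95% interval -1.16 to -0.58, edgeR adjusted p = 0.0182). The same 4 omissions cost this gene its call too (edgeR adjusted p = 0.0524, 0.0691, 0.0613 and 0.0553). The log2 fold change was -1.04 within code L3 (edgeR adjusted p = 0.0112). Within code L1 it was -0.58 and not called, but 1 plus-marked library gives no spread of its own there.

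**Figure D2:**
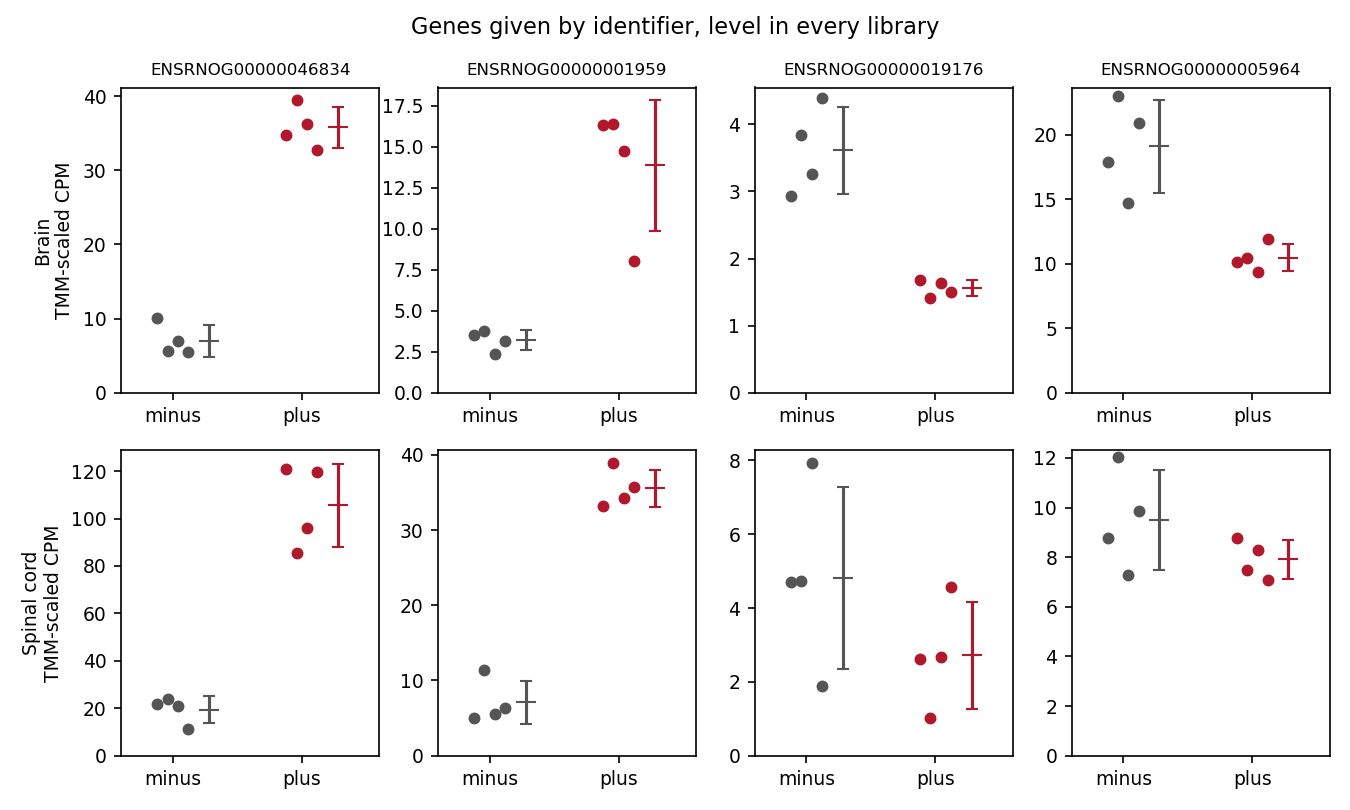
Level (TMM-scaled CPM, linear axes from 0) of the 4 genes given by identifier in each of 8 brain libraries (top) and 8 spinal cord libraries (bottom), by mark; points are libraries in order 1 to 4, and bars show the mean ± SD (n = 4). In brain no gene has overlapping marks, while in spinal cord both genes on the right do.

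The 32 higher genes did not rise to the same extent in every plus-marked library. Relative to the mean of the minus-marked libraries, their median log2 level was 1.19 in plus-marked library 1, 1.19 in library 2, 0.98 in library 3 and 0.72 in library 4. Library 1 was the highest of the plus-marked libraries for 20 of the 32 genes, and library 4 was the lowest for 23 of them. Library 4 is also the only plus-marked library with the code L1, which minus-marked libraries 3 and 4 carry as well; the other 5 libraries carry L3. The 9 lower genes lay closer together, with medians of -0.62, -0.51, -0.69 and -0.63 in plus-marked libraries 1 to 4. These values describe genes chosen by the same contrast and carry no test.

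**Figure D3:**
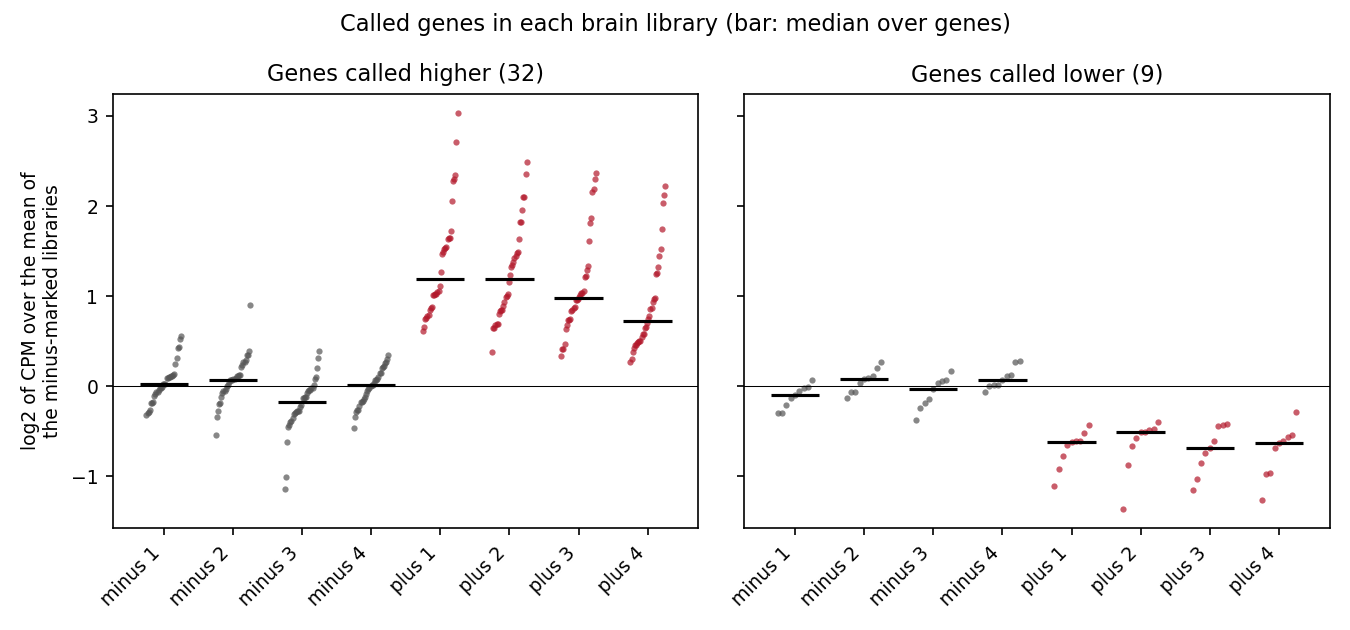
Log2 of CPM over the mean of the minus-marked libraries (vertical) for the 32 genes called higher (left) and the 9 called lower (right) in each brain library; points are genes and bars their median. The median of the higher genes goes from 1.19 in plus-marked libraries 1 and 2 to 0.72 in library 4.

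Which genes were called depended on single libraries. Without plus-marked library 1, 2 or 3, 8, 10 and 13 genes were called, of which 8, 8 and 13 belonged to the 41. Without minus-marked library 1, 3 or 4, 24, 22 and 15 were called, 18, 19 and 13 of them among the 41. Leaving out plus-marked library 4 had the opposite effect, with 60 genes called, 52 higher and 8 lower. Over these 8 fits, 7 of the 41 genes were called every time, with log2 fold changes of 0.92 to 2.35, so all were higher, and 25 were called in 3 or fewer fits. None changed direction in any of them, which the lack of overlap between the marks made all but certain in advance. Within code L3 (3 plus-marked and 2 minus-marked libraries) 29 genes were called, 17 of the 41 among them. Within code L1 (1 and 2) 71 were called, 21 higher and 50 lower, 9 of the 41 among them. That fit has no spread for its lone plus-marked library and assumes that of the minus-marked ones, so its count describes those 3 libraries and not the mark.

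**Figure D4:**
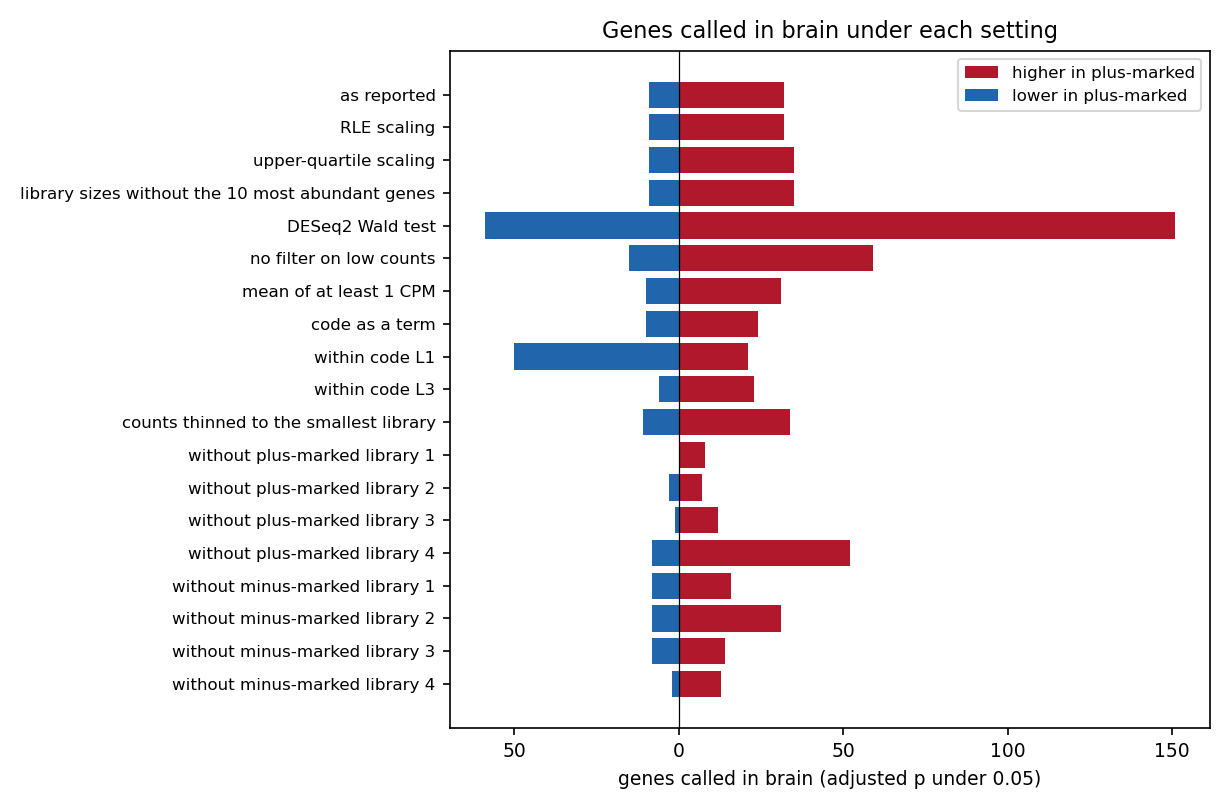
Number of brain genes called (horizontal, to the right of 0 for higher and to the left for lower in plus-marked libraries) as reported and in each of 18 alternative fits. The fits without plus-marked libraries 1, 2 and 3 give 8, 10 and 13 genes, the fit without library 4 gives 60, and the DESeq2 test gives 210.

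For most genes tested, called ones included, the libraries bounded the possible change. The 95% interval of the log2 fold change lay wholly within a 2-fold change either way for 14423 of 16860 genes (85.5%), and within a 1.5-fold change for 11839 (70.2%). The bound depended on abundance. It was within 2-fold for 99.3% of genes at 10 to 100 CPM and 90.4% at 1 to 10 CPM, but for only 23.1% of genes under 1 CPM, where the median half-width of the interval was 0.93 against 0.21 at 10 to 100 CPM. A change of 2-fold in a weakly expressed gene would often not have been detectable here. At the other end, 10 genes had an interval wholly beyond a 2-fold change. Of these, 4 had a mean under 1 CPM, a range where only 2 genes were called, so not all 10 were called. These intervals are per gene and not adjusted for the number of genes.

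Late spinal cord, sequenced from libraries that carry the same numbers, gives the closest comparison. There, 2312 of 17134 genes (13.5%) were called in the same test. The cord column names carry codes too, which mostly differ between the marks. Whether code bears on the cord calls or on the tissue differences below was not tested. Of the 41 brain genes, 40 could be tested in cord and 32 were called there in the same direction, 29 of the 32 higher genes and 3 of the 8 lower genes tested, where 6.83% of all cord genes were called higher and 6.66% lower. The remaining 3 higher and 5 lower genes did not pass in cord, and 1 of these, a gene under 1 CPM in brain, had the opposite sign there (log2 fold change -1.51, SE 1.16). For the higher genes the median log2 fold change was 1.05 in brain and 1.31 in cord, and for the lower genes tested in both it was -0.64 and -0.62, where the median over all cord genes was 0.00. The labels do not say whether libraries with the same number came from one rat, so the tissues may not be independent.

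**Figure D5:**
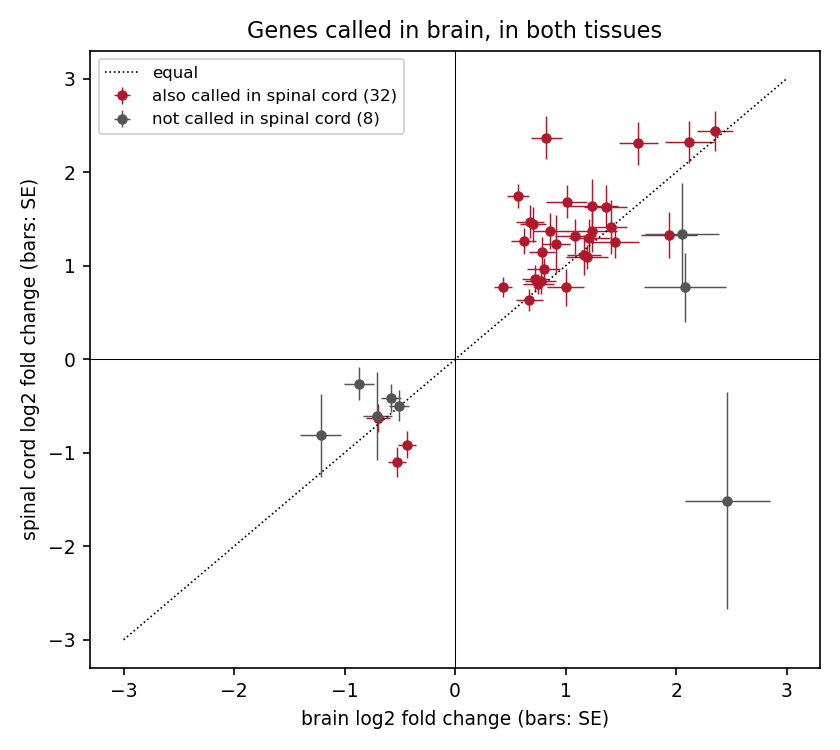
Log2 fold change (plus against minus) in brain (horizontal) and in spinal cord (vertical) of the 40 genes called in brain and tested in both tissues; bars are SE, red points are the 32 also called in cord, grey points the 8 not called there, and the dotted line marks equal changes. Of the points, 39 have the same sign in both tissues, and 1 lies at -1.51 in cord.

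The genes given by identifier divided by direction. ENSRNOG00000046834 was at 121, 85.5, 96.02 and 119.7 CPM in plus-marked and 21.7, 23.9, 20.9 and 11.2 CPM in minus-marked cord libraries 1 to 4, which is a log2 difference of 2.44 (SE 0.21, edgeR adjusted p = 0.000154). ENSRNOG00000001959 was at 33.2, 38.9, 34.3 and 35.7 CPM against 5.06, 11.3, 5.57 and 6.33 CPM, which is a log2 difference of 2.32 (SE 0.22, edgeR adjusted p = 0.00024). In both, the marks were far apart in cord. The falling genes did not pass in cord. ENSRNOG00000019176 was at 2.62, 1.03, 2.68 and 4.57 CPM against 4.72, 4.72, 7.92 and 1.89 CPM (log2 fold change -0.81, SE 0.44, edgeR adjusted p = 0.247), with overlapping marks. ENSRNOG00000005964 was at 8.77, 7.47, 8.31 and 7.07 CPM against 8.76, 12.1, 7.26 and 9.85 CPM (log2 fold change -0.26, SE 0.17, edgeR adjusted p = 0.34), also overlapping.

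A difference between tissues was tested directly as the interaction of mark and tissue, which passed for 498 of 17823 genes (2.79%). Among the 41 brain genes it passed for 2, both higher genes that changed less in brain than in cord. One had a log2 fold change of 0.82 in brain and 2.37 in cord, a difference of -1.54 (SE 0.29, edgeR adjusted p = 0.00976). The other had 0.57 and 1.75, a difference of -1.17 (SE 0.16, edgeR adjusted p = 0.000895). With the number in the column names as a block, 5 of the 41 passed. For ENSRNOG00000046834 the difference, brain less cord, was -0.08 (95% interval -0.69 to 0.52), for ENSRNOG00000001959 it was -0.20 (-0.91 to 0.51), for ENSRNOG00000019176 it was -0.40 (-1.44 to 0.65) and for ENSRNOG00000005964 it was -0.60 (-1.07 to -0.13, edgeR adjusted p = 0.143). Taken gene by gene and without adjustment, the 95% interval of the difference excluded 0 for 13 of the 41 genes, and 10 of these changed less in brain. Of the 32 higher genes, 23 had the larger log2 fold change in cord. Among the 8 lower genes tested in cord, 2 changed more there. All were chosen by their test in brain, which limits any comparison of size between the tissues. The interval lay within 2-fold for 23 of the 41, of which 3 excluded 0, and its median half-width was 0.55. Equal changes in both tissues were therefore not shown.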

How the data were processed

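RNA was measured in rat brain by sequencing of total RNA after depletion of ribosomal RNA, with dUTP strand marking and paired-end reads, per the labels' protocols. The authors deposited raw counts per Ensembl gene identifier, whole numbers with no normalization. The tools cutadapt, featureCounts and DESeq2 and the build mRatBN7.2 come from the submitters' processing notes; the aligner and strand setting are not given there or in the labels. Reads of overlapping or near-identical genes may have been assigned in ways the counts do not show. The early-stage table has 12 columns that could not be tied to a genotype and was not used here.

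Counts were tested with edgeR 4.0.16 (R 4.3.3, limma 3.58.1): filterByExpr, TMM scaling and a robust quasi-likelihood F test on mark alone, each tissue by itself, two-sided, adjusted by Benjamini-Hochberg across every gene in the fit. Tissue differences came from the interaction in a joint fit of both tissues. SE and 95% intervals were derived from the F statistic and its degrees of freedom. CPM (counts per library scaled to a common total) include the TMM factor. A prior count of 2 was added for the log2 CPM behind the distances and SDs. No prior was added for the log2 levels of called genes in each library or the log2 gaps between marks. The fits were also run on simulated counts with known changes. Those counts held no effect of code or of single libraries, so that run does not bear on how the calls depended on them. Total counts ran from 33105800 to 82776333.

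The members, lists, tests and alternatives were chosen with earlier results of these data known. The naming rule took the 12 higher and 8 lower called genes with the largest change and a mean log2 CPM of at least 0, every called gene with a symbol, the edited gene and members of the lists. With no symbols, it was shortened to the first 2 in each direction after the tables were seen. Alternatives were RLE and upper-quartile scaling, library sizes that omit the 10 most abundant genes, the DESeq2 1.42.0 Wald test, no filter or a mean of at least 1 CPM, the code (L1 or L3) in the column names, thinned counts, a block by number and leaving out each library.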

Additional observations from a re-analysis of the deposited data

Results flagged for a closer look

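For 28 sets of 4 libraries, the highest or lowest value was set against the other 3, and 2 stood out, where chance gives about 1 in 20 sets. Both were brain minus-marked library 4. Its share of counts in the 10 most abundant genes was 36.1%, where the rest of its group had 17.8% to 18.8%, and its TMM scaling factor was 0.803, where theirs were 1.06 to 1.08. The factor is computed from the same counts as the share.

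The effect of mark differed between brain and spinal cord for 2 of the 41 genes called in brain, by the edgeR interaction term; both rose in both tissues and less in brain.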

How the results depend on the processing

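The 41 genes called in brain became 210 with the DESeq2 Wald test (151 higher, 59 lower; all 41 among them), 74 with no filter on low counts (40 of the 41 among them) and 71 within code L1. With 1 library left out the count ran from 8 to 60. It stayed within 1.5 times under RLE and upper-quartile scaling (41 and 44), a mean of at least 1 CPM (41) and thinning (45). The same held with the code as a term (34, of which 29 belonged to the 41) and for code L3 alone (29, of which only 17 belonged to the 41). Library sizes without the 10 most abundant genes gave 44, but the scaling step largely undoes that change, so this count says little about those genes. The cause of these shifts was not tested. Of 41 brain genes, 32 were called in cord in the same direction, 34 by DESeq2 and 29 to 33 with 1 cord library left out. Tissue differences among them numbered 2, but 6 by DESeq2, 5 with the replicate block by number, and 2 to 4 with 1 library left out. No paired analysis was possible within brain because the column names carry no number shared between the marks. For the 4 genes given by identifier, 61 of 72 alternative fits gave the same call and 11 missed the threshold, all for both falling genes. The 72 include the fits within code L1, whose calls rest on 1 plus-marked library. None reversed, which the lack of overlap between the marks made all but certain in advance. For the next results the alternatives were chosen after the data were seen. The number of genes with an interval within 2-fold ran from 12075 to 14425 over 17 fits, and the distance between marks had a one-sided exact permutation p of 0.0857 in 4 of 5 alternatives and 0.257 with a mean of at least 1 CPM. Counts limit what can be seen under 1 CPM, and intervals there cover counting error and library spread together.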

Other observations

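Some genes had a count in all 4 libraries of one mark and in none of the other. In the counts as deposited there were 24 such genes for plus and 6 for minus. After thinning to the smallest library there were 16 and 7. All were weakly expressed, with at most 38 counts over the 8 libraries as deposited. Of the 30560 identifiers, 17162 had a count in all 8 libraries and 8480 in none. The single most abundant gene took 8.11% to 10.2% of the counts in plus-marked libraries, and 6.41%, 6.09%, 5.67% and 9.39% in minus-marked libraries 1 to 4.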
